A study of Mus musculus with 36 samples.

Results

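The comparison set lungs of wild-type mice challenged with the egg protein ovalbumin (OVA) against lungs of wild-type mice given phosphate-buffered saline (PBS), as read on expression arrays. Its members were the 8 arrays whose titles name C57BL/6 wild-type mice with no engrafted cells, 4 exposed to OVA and 4 to PBS, out of 36 arrays in the series. Of the OVA arrays, 3 entered the fit (OVA arrays 1 to 3), because the Kit value of the array titled as the fourth goes against its wild-type label. That array (OVA array 4) is shown beside the results, and the counts of genes called are repeated with it. Sensitisation consisted of 3 intraperitoneal injections, on days 1, 4 and 7, each of 50 µg OVA dissolved in 0.1 ml PBS. Intranasal challenge began on day 12 and was given once a week over 9 weeks, with 20 µg OVA in 30 µl each time. Control animals were injected and challenged with PBS alone at the same times. All mice are described as age-matched females, without an age, and none of the 8 received engrafted mast cells. The tissue was whole lung, so every value is an average over all its cells. The remaining 28 arrays are of mast-cell-deficient KitWsh mice, with or without engraftment. Their range of Kit values served to check the genotype label, and otherwise they entered only an alternative fit of all 10 groups. Nothing in the labels says whether the arrays of a group are separate animals, so a p-value measures the spread between these samples, which may in part be technical.

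Repeated inhalation of a protein to which an animal is sensitised produces allergic airway inflammation. Type 2 cytokines, chiefly IL-4 and IL-13, act on airway epithelium, which turns to mucus-producing goblet cells, and on macrophages, which make arginase and chitinase-like proteins. Chemokines bring in eosinophils, monocytes and lymphocytes, plasma cells make antibody, and fibroblasts and smooth muscle remodel the airway wall.

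The labels were checked first. Kit, the receptor of stem cell factor and a defining gene of mast cells, read 10.61, 10.63 and 10.97 (log2 intensity) in OVA arrays 1 to 3 and 10.11, 9.99, 9.86 and 10.28 in the PBS arrays. OVA array 4 read 6.90, inside the range of 4.52 to 7.52 over the 28 KitWsh arrays. The Y-linked transcripts Eif2s3y, Kdm5d and Uty read 9.07, 7.08 and 5.70 in OVA array 4 and no more than 2.38 in the other 7 arrays, and Xist read 10.00 there against 12.56 to 13.19. The library labelled wild-type OVA array 4 thus goes against its genotype and sex labels in both checks. It read both the Y-linked transcripts and Xist above log2 5, and the reason was not tested. Lung epithelial transcripts were bright in all 8 arrays: the surfactant gene Sftpc read 14.95 to 15.49 and the club cell secretoglobin Scgb1a1 read 15.37 to 15.80. Pearson's r over all genes was 0.996 among OVA arrays 1 to 3, 0.992 to 0.998 among the PBS arrays and 0.982 to 0.991 between the groups. OVA array 4 correlated at 0.985 to 0.991 with the other OVA arrays and at 0.990 to 0.994 with the PBS arrays. PBS array 4 had the largest 3′ minus 5′ difference of the control transcripts, a sign of RNA degradation, at 1.77 for beta-actin (1.17 to 1.46 in the other 7 arrays) and 1.44 for GAPDH (0.39 to 0.83).

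The largest rises were of goblet cell, macrophage and acute-phase genes, and the largest falls were of fat metabolism genes, the clock gene Arntl and epithelial and matrix genes. In the limma fit, 3648 of 11027 genes tested were called at a Benjamini-Hochberg adjusted p under 0.05, which is 33.1%. Of these, 1850 were higher in OVA lungs (16.8% of the genes tested) and 1798 lower (16.3%). A change of over 2-fold was called for 495 genes upward (4.49%) and 220 downward (2.0%), together 6.48%. OVA arrays 1 to 3 did not overlap the PBS arrays in 41.8% of the tested genes, all higher in 20.7% and all lower in 21.2%. The median log2 difference over all tested genes was -0.03. With OVA array 4 in the fit, 1354 genes were called (12.3%), 578 higher (5.24%) and 776 lower (7.04%), and each of these was among the genes called in the same direction without it. The total was 2163 without OVA array 2 and 2314 without OVA array 1. The shares of the gene lists are to be read against the 16.8% and 16.3% of all tested genes. For each list, the numbers called higher and lower with OVA array 4 in the fit are given beside the main count, and they are to be read against 5.24% and 7.04%. The volcano plot shows the calls over all tested genes.

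**Figure D1:**
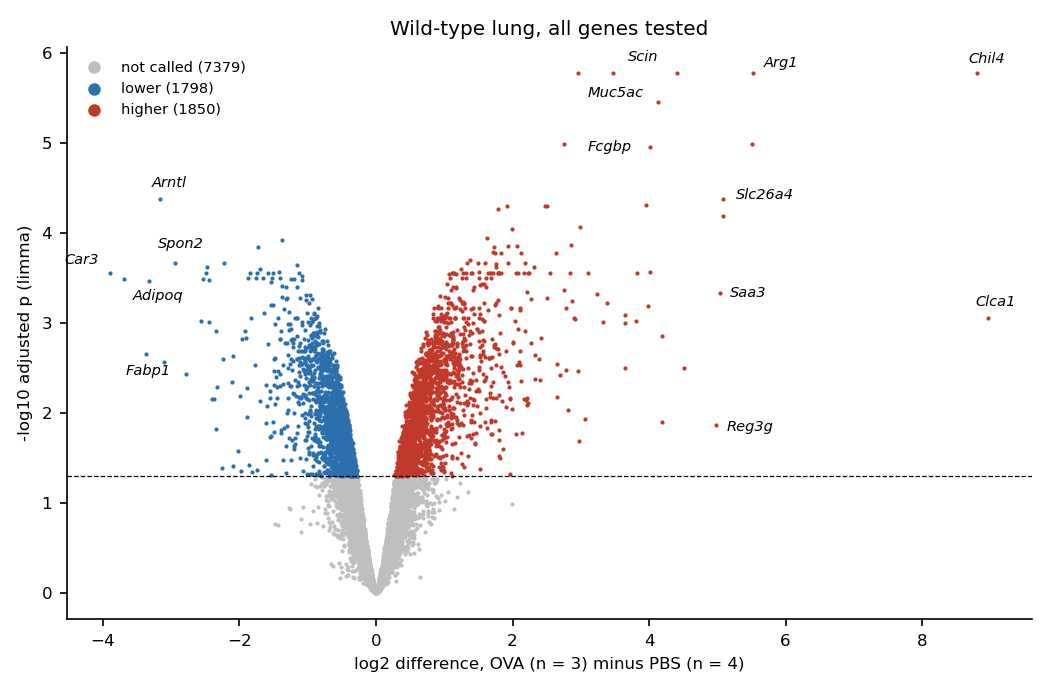
Each point is 1 of the 11027 genes tested, with the log2 difference (OVA arrays 1 to 3 minus PBS arrays 1 to 4) on the horizontal axis and the negative log10 of the limma adjusted p on the vertical axis, and the dashed line marks the adjusted p of 0.05. The 1850 genes called higher (red) reach a log2 difference of 8.96 at Clca1, while the 1798 called lower (blue) reach -3.89 at Car3.

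Among the 15 genes with the largest called rises were several products of mucous airway epithelium. Clca1, a secreted goblet cell protein that processes mucins, read 13.77, 14.41 and 14.45 in OVA arrays 1 to 3 and 3.41, 3.23, 6.09 and 8.24 in the PBS arrays. Every OVA array was therefore far above every PBS array, and the PBS arrays spread over 5 log2 units. The difference was 8.96 ± 1.07 (log2 difference ± standard error, limma adjusted p = 0.000874). OVA array 4, at 10.69, lay between the groups. Agr2, a disulphide isomerase needed to fold mucins, read 8.39, 8.16 and 8.59 against 2.69, 2.90, 3.37 and 4.24, a rise of 5.08 ± 0.33 (adjusted p = 6.48e-05). Every PBS array of Agr2 was under log2 5, near the background of the arrays, so its fold change is at least 10.4-fold, taken as the OVA mean against 5. The gel-forming airway mucin Muc5ac read 7.23, 7.21 and 7.84 against 3.32, 3.11, 3.32 and 3.42, a rise of at least 5.37-fold (adjusted p = 3.42e-06). Muc5ac in OVA array 4, at 3.34, was at the level of the PBS arrays. Fcgbp, a mucus protein that binds IgG, rose by 4.02 ± 0.20 and the trefoil peptide Tff2, which is secreted with mucin, by 3.32 ± 0.41. Muc5b, the gel-forming mucin that airways also make at rest, went from 8.15 ± 0.66 (SD, n = 4) to 11.03 ± 0.08 (SD, n = 3), a rise of 2.87 ± 0.31.

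Of 16 listed goblet cell and mucus genes, 12 passed the filter and were tested, 10 were higher and none lower, with a median log2 difference of 2.90. The filter asks for a log2 value over 5 in at least 3 of the 8 arrays, and 4 of the 12 had no PBS array over 5, so they could pass only by being high after OVA. Such members are counted in each list they belong to, where their number is given. Counts and medians that hold them are no support for a rise. Likewise, counts and medians with members that had no array over 5 among OVA arrays 1 to 3 are no support for a fall. The adjusted p of any single gene of either kind, in a list or not, has the same limit. Where only some arrays of the lower group were under 5, the fitted difference is given, and it rests in part on values near background. The other called members included the sodium-glucose transporter Slc5a1 (at least 5.98-fold) and the lectin Itln1 (at least 1.31-fold). The transcription factor Creb3l1 (0.81 ± 0.14) and the mucin glycosyltransferase Galnt12 (0.64 ± 0.11) were also called. Galnt4 (-0.01) and Dnajc10 (-0.30) were not called. Tff1, Spdef, Foxa3 and Gcnt3 stayed under the filter, with Spdef, a transcription factor of goblet cells, at a mean of 5.19 after OVA and 2.72 after PBS. The fit with OVA array 4 called 7 of the 12, all higher. In whole lung, more cells of a type and more RNA in each cell cannot be told apart.

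**Figure D2:**
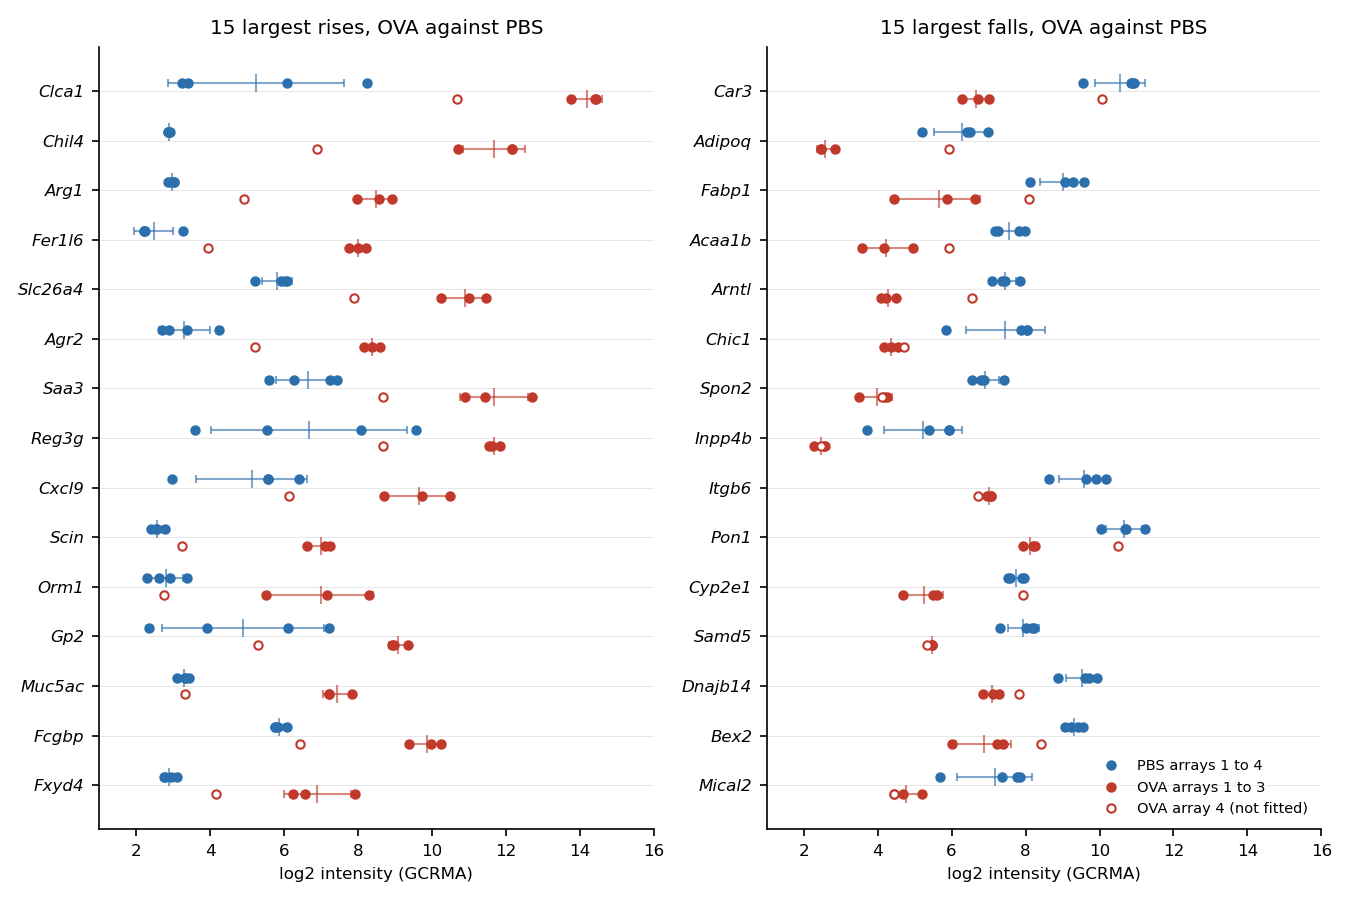
Log2 intensity (horizontal axis) of the 15 genes with the largest called rises (left) and the 15 with the largest called falls (right), with 1 point per array and a bar for the mean ± SD of the 4 PBS arrays (blue) and of OVA arrays 1 to 3 (filled red). Open red points are OVA array 4, which was not fitted and lay beyond every PBS array, on the called side, in 10 of the 15 rises and 11 of the 15 falls.

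Several of the remaining large rises were also of secreted or epithelial proteins. Fer1l6, a ferlin family membrane protein, read 7.77, 8.21 and 8.00 after OVA and 2.20, 2.20, 2.24 and 3.27 after PBS, a rise of at least 7.96-fold (adjusted p = 1.01e-05). Scin, the actin-severing protein scinderin, read 6.63, 7.10 and 7.24 against 2.41, 2.54, 2.55 and 2.79, a rise of at least 3.97-fold (adjusted p = 1.67e-06). For both genes the 3 OVA arrays lay together and far from the PBS arrays. Neither had another array over 5, so both passed the filter only by being high in these OVA arrays. Gp2, known as a surface glycoprotein of epithelial M cells, averaged 9.08 ± 0.23 (SD, n = 3) after OVA, whereas its PBS arrays spread from 2.34 to 7.21. Reg3g, an antibacterial lectin of airway and gut epithelium, read 11.85, 11.63 and 11.55 after OVA and 5.53, 3.59, 8.08 and 9.56 after PBS. Its rise of 4.99 ± 1.18 (adjusted p = 0.0134) was not called without OVA array 1, with adjusted p = 0.0501. PBS array 4 was the PBS array nearest to the OVA arrays in 10 of these 15 genes and in 11 of the 15 largest falls. Over all genes called higher it was nearest in 34.7%, and over all called lower in 35.9%.

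The chitinase-like and resistin-like proteins are made by macrophages and airway epithelium under type 2 cytokines. Chil4 read 10.72, 12.16 and 12.16 after OVA and 2.85, 2.90, 2.85 and 2.93 after PBS. All PBS arrays lay at background, and the rise was at least 103-fold (adjusted p = 1.65e-06). OVA array 4 read 6.89, well above the PBS arrays. Retnla, a resistin-like secreted protein of alternatively activated macrophages, read 14.08, 14.62 and 14.19 against 11.86, 12.23, 11.94 and 12.51, a rise of 2.16 ± 0.19 (adjusted p = 0.000275). OVA array 4, at 13.77, stood with the other OVA arrays for Retnla. Chia1, the acidic chitinase of airway epithelium, rose by 1.73 ± 0.25, Chil3 by 1.04 ± 0.17 and Chil1 by 0.96 ± 0.11. These 5 of 6 tested members were higher and none was lower, with a median of 1.38, and Ctbs (-0.11), a lysosomal chitobiase, was not called. Including OVA array 4 left 4 higher and none lower, and 1 member, Chil4, had no PBS array over 5. Chil3 and Chil4 are close copies of each other, and probe sets may read both.

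The RefSeq promoter of Retnla is shown because Retnla is a textbook target of STAT6, the transcription factor that IL-4 and IL-13 activate. Promoters here hold 250 bases before to 50 bases after the transcription start, on the GRCm38.p6 build. The STAT6 motif searched, TTC and GAA with any 4 bases between them, reads the same on both strands and occurs in 6.95% of 32851 promoters of this length. In Retnla (chr16:48842359-48842658, plus strand) it occurs 1 time, with its first base 145 bases before the start, given in capitals and written 5′ to 3′:
Retnla: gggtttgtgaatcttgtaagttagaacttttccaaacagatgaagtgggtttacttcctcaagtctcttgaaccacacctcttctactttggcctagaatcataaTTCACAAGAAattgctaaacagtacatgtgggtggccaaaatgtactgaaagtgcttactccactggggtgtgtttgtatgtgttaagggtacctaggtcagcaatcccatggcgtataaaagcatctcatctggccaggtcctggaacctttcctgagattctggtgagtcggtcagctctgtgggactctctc
Of the 5 promoters of called chitinase-like and resistin-like genes, 1 held the motif. A match describes the letters only, and binding was not measured.

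Arginine uptake and breakdown genes moved upward in part. Arg1, the arginase of alternatively activated macrophages, read 8.91, 8.58 and 7.99 after OVA and 2.95, 2.87, 3.03 and 3.03 after PBS, a rise of at least 11.3-fold (adjusted p = 1.65e-06). OVA array 4 read 4.93 for Arg1, above every PBS array and under every other OVA array. The cationic amino acid transporter Slc7a2 rose by 1.26 ± 0.22, the mitochondrial arginase Arg2 by 1.13 ± 0.18 and the spermidine synthase Srm by 1.07 ± 0.13. Asl, which forms arginine from argininosuccinate, was called at 0.33 ± 0.11 and lost the call without single arrays (adjusted p up to 0.124). In all, 5 of 11 tested members were higher, none was lower and the median was 0.33, against 2 higher and none lower with OVA array 4 in the fit. Arg1 had no PBS array over 5. Odc1 (0.37), Nos3 (0.23) and Oat (-0.13) were among the 6 not called, and Nos2, the inducible nitric oxide synthase, stayed at background, at 2.19 in both group means.

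Transcripts of the type 2 cytokines themselves were near background. Il4, Il5, Il9 and Il13 had group means from 2.19 to 2.39 after OVA and from 2.19 to 2.22 after PBS, so no change could be measured in them. Il33, an epithelial and stromal alarmin that activates innate lymphoid and mast cells, read 13.01, 13.11 and 12.70 after OVA and 11.27, 11.03, 11.33 and 11.55 after PBS. Its groups did not overlap and it rose by 1.65 ± 0.15 (adjusted p = 0.000275). Tslp, the other measured alarmin of epithelium, fell by 0.94 ± 0.13 (adjusted p = 0.00147), from 7.15 ± 0.15 (SD, n = 4) to 6.22 ± 0.16 (SD, n = 3). Crlf2, the TSLP receptor chain, rose by 0.59 ± 0.12. The IL-4 receptor chain Il4ra was called at 0.78 ± 0.20, which was lost without OVA array 1 (adjusted p = 0.0644). Stat6 (0.21) and Il13ra1 (0.13) were not called. In the whole axis, 4 of 10 tested members were higher and 2 lower (1 and 1 with OVA array 4), with a median of 0.17, where 10 of the 20 members with a probe set stayed under the filter. The 2 Janus kinases called, Tyk2 (0.52 ± 0.13) and Jak1 (-0.43 ± 0.11), each lost the call without OVA array 2 (adjusted p = 0.0674 and adjusted p = 0.0715), and Jak1 also without PBS array 1.

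Of 15 tested genes that IL-4 and IL-13 induce in macrophages, 4 were higher and 1 lower, with a median of 0.20, and none was higher and 1 lower in the limma fit with OVA array 4. Without that array 26.7% were higher and 6.7% lower, beside 16.8% and 16.3% of all tested genes. Of the members, 1, Il1rn, had no PBS array over 5. Il1rn, the IL-1 receptor antagonist, rose at least 2.01-fold (adjusted p = 0.00427), and its OVA arrays spread from 5.36 to 7.28. The transcription factor Irf4 rose by 1.61 ± 0.34 and the mannose receptor Mrc1 by 0.89 ± 0.19. Egr2 was called at 0.52 ± 0.12 (adjusted p up to 0.0526 without 1 array). The dendritic cell lectin Cd209a was called lower at -0.78 ± 0.23 and lost the call without single arrays (adjusted p up to 0.0981).

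Several chemokines that attract eosinophils and monocytes rose, and others were not measurable. Ccl11, or eotaxin, the attractant of eosinophils, read 7.61, 8.46 and 6.95 after OVA and 3.51, 4.61, 4.46 and 2.90 after PBS, a rise of at least 6.38-fold (adjusted p = 0.000935). OVA array 4, at 2.93, was at the lower end of the PBS arrays for Ccl11. Ccl8, a chemokine of monocytes and type 2 T cells, read 11.43, 10.79 and 10.91 against 7.06, 7.00, 8.51 and 8.05, a rise of 3.39 ± 0.37 (adjusted p = 0.000592). The monocyte attractant Ccl12 rose at least 5.43-fold, Ccl9 by 2.06 ± 0.19, Ccl6 by 1.83 ± 0.17 and the receptor Ccr1 by 1.72 ± 0.31. Ccl5 was called at 1.06 ± 0.25 and lost the call without OVA array 1 (adjusted p = 0.0505). The fractalkine receptor Cx3cr1, borne by patrolling monocytes, fell by 0.66 ± 0.14. Of 12 tested members 7 were higher and 1 lower, with a median of 1.39, and 4 higher and 1 lower with OVA array 4 in the fit. Ccl11 and Ccl12, 2 of the 7, had no PBS array over 5. Ccl2, Ccl7, Ccl3, Ccl4, Ccl20, Ccl24 and the eotaxin receptor Ccr3 stayed under the filter, with Ccl3 at a mean of 5.63 after OVA and 3.17 after PBS. Among IL-6 and neutrophil-attracting cytokines, 3 of 8 were higher and 1 lower (none and 1 in the limma fit with OVA array 4). The neutrophil attractant Cxcl1 read 7.60, 6.47 and 5.80 after OVA and 5.07, 3.42, 4.46 and 4.66 after PBS, where 3 of 4 arrays were under 5, and its difference of 2.22 ± 0.46 (adjusted p = 0.00806) rests in part on values near background. In the same list, the IL-6 receptor Il6ra fell by 1.29 ± 0.23, and Csf2 (0.65 ± 0.17) and Il17ra (0.52 ± 0.17) lost their calls without single arrays (adjusted p up to 0.0843 and up to 0.151).

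Acute-phase proteins are made in liver and also by epithelium and macrophages of an inflamed lung. Saa3, a serum amyloid made outside the liver, read 12.70, 11.43 and 10.91 after OVA and 6.28, 5.60, 7.26 and 7.44 after PBS, a rise of 5.03 ± 0.52 (adjusted p = 0.000456). Its groups were separated by more than 3 log2 units, and OVA array 4 lay between them at 8.67. The acid glycoprotein Orm1 read 8.31, 7.16 and 5.51 against 3.38, 2.63, 2.90 and 2.29, a rise of at least 3.98-fold (adjusted p = 0.00137). Fgg, a fibrinogen chain, rose by 2.84 ± 0.26, the iron-scavenging proteins Ltf and Lcn2 by 2.39 ± 0.37 and 2.28 ± 0.24, and the peptidoglycan-binding protein Pglyrp1 by 2.19 ± 0.44. Serpina3n (1.93 ± 0.14), Itih4 (1.78 ± 0.19) and the transporter of IgA across epithelium, Pigr (1.03 ± 0.13), were also higher. Lbp was called at 0.46 ± 0.12 and lost the call without OVA array 2 (adjusted p = 0.0788) or OVA array 3 (adjusted p = 0.0505). Of 11 tested members 10 were higher and none lower, with a median of 2.19, whereas 2 were called with OVA array 4 in the fit, both higher. Orm1 had no PBS array over 5. Haptoglobin, Hp (-0.18), was not called. Saa1, Saa2, Crp and Apcs, the proteins that liver supplies to blood, stayed at group means of 2.19 to 2.41.

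Epithelial ion transport genes changed in both directions, with 6 of 16 higher, 4 lower and a median of 0.25 (3 and 3 called with OVA array 4). Fxyd4 had no PBS array over 5. Slc26a4, the anion exchanger pendrin of airway epithelium, read 11.00, 11.46 and 10.25 after OVA and 6.04, 6.07, 5.23 and 5.91 after PBS, a rise of 5.09 ± 0.30 (adjusted p = 4.15e-05). Fxyd4, a regulator of the sodium pump, rose at least 3.75-fold (adjusted p = 0.000268), with OVA arrays at 6.56, 7.93 and 6.23 and PBS arrays from 2.75 to 3.10. Fxyd3 rose by 0.72 ± 0.12. Kcne3 (0.81 ± 0.22), Atp1b1 (0.50 ± 0.12) and the chloride channel Ano1 (0.41 ± 0.13) lost their calls without single arrays (adjusted p up to 0.0576, 0.0571 and 0.13). The water channel Aqp4 fell by 1.37 ± 0.14, the bicarbonate transporter Slc4a4 by 0.98 ± 0.16 and the chloride channel Cftr by 0.74 ± 0.16. Scnn1b, a sodium channel subunit, was called at -0.49 ± 0.16 and lost the call without single arrays (adjusted p up to 0.159).

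Many macrophage genes rose. Gpnmb, a glycoprotein of lipid-laden macrophages, read 9.22, 11.48 and 8.45 after OVA and 6.13, 6.28, 6.32 and 5.55 after PBS, a rise of 3.65 ± 0.60 (adjusted p = 0.00311). Trem2, a lipid-sensing receptor, read 6.63, 7.66 and 6.20 against 3.74, 3.75, 3.70 and 3.69, a rise of at least 3.55-fold (adjusted p = 0.000275). OVA array 2 was the highest array for both genes. Mmp12, the macrophage elastase, rose by 2.78 ± 0.31, Ms4a7 by 2.32 ± 0.20, the lysosomal glycoprotein Cd68 by 2.28 ± 0.32 and the C1q chains C1qc, C1qa and C1qb by 1.92 ± 0.12, 1.76 ± 0.15 and 1.58 ± 0.22. Vcan, Fcgr1 and Fn1 were higher too. The falling members were F13a1 (-0.97 ± 0.21), Cx3cr1 and the macrophage growth factor receptor Csf1r (-0.56 ± 0.12). For Csf1r 1 of 3 probe sets tested reached an unadjusted p under 0.05. In the list of recruited monocytes and macrophages 11 of 17 were higher and 3 lower, with a median of 1.61, where Trem2 and Vcan, 2 of the 11, had no PBS array over 5. Each of the 14 calls held whichever of the 7 arrays was left out, but with OVA array 4 in the fit 3 were higher and 2 lower.

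For alveolar macrophages, 10 of 16 tested genes were higher and none lower, with a median of 0.78 (2 higher with OVA array 4 in the fit). The cysteine protease Ctsk rose by 2.07 ± 0.26, the scavenger receptor Marco by 1.90 ± 0.28, the integrin Itgax by 1.79 ± 0.26 and the proton pump subunit Atp6v0d2 by 1.69 ± 0.39. Fabp4, Plet1, Abcg1 and Fabp5 were called and lost the call without at least 1 array (adjusted p up to 0.0669, 0.0505, 0.102 and 0.0788). Siglecf, the lectin that alveolar macrophages share with eosinophils, was not called at -0.36.

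The paired and lectin receptors of myeloid cells bind microbial sugars or host ligands and either activate or restrain the cell. Of 19 tested, 15 were higher and 1 lower, with a median of 1.14, where 1 member had no PBS array over 5 and 2 had no array over 5 among OVA arrays 1 to 3. Clec4n, or dectin-2, read 10.26, 9.71 and 9.31 after OVA and 7.45, 7.73, 6.90 and 6.96 after PBS, a rise of 2.50 ± 0.26 (adjusted p = 0.000526). Clec7a, or dectin-1, the receptor of fungal glucans, rose by 1.67 ± 0.32. The inhibitory receptors Cd200r1 (at least 1.74-fold), Cd300a (2.11 ± 0.34), Cd300lf (1.83 ± 0.30) and Pirb (1.14 ± 0.19) rose, as did Cd200r4 (1.68 ± 0.26), Clec4a2 (1.00 ± 0.18), Cd300c2 (0.95 ± 0.16) and Sirpa (1.02 ± 0.17), the receptor of CD47. Among chains of the GM-CSF, IL-3 and IL-5 receptors, Csf2rb2 rose by 1.50 ± 0.25 and Csf2rb by 1.06 ± 0.19. Csf2ra, at 1.46 ± 0.39, lost its call without OVA array 2 (adjusted p = 0.0908) or OVA array 3 (adjusted p = 0.0559). Clec4d (1.62 ± 0.39) and Clec4a3 (0.65 ± 0.21) likewise lost theirs without OVA array 2 (adjusted p = 0.0568 and adjusted p = 0.119), and Clec4a3 also without others. Treml4 fell at least 1.82-fold. The fit with OVA array 4 called 1 member higher and 1 lower.

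Lymphocyte genes that were called were mainly higher, but B cell genes were called higher in 14.3%, under the 16.8% of all tested genes. T cell genes were higher in 6 of 13 and lower in none, with a median of 0.55, and none was called with OVA array 4 in the fit, where limma gave Cd3g adjusted p = 0.17. Of the 13, 1 had no PBS array over 5. Cd3g, a chain of the T cell receptor complex, read 8.16, 7.53 and 7.48 after OVA and 6.67, 6.02, 6.63 and 5.58 after PBS, a rise of 1.50 ± 0.28 (adjusted p = 0.0054). The groups of Cd3g did not overlap, whereas Cd3d (0.48), Cd3e (0.54) and Cd247 (0.44) were not called. The adaptor Lat (1.25 ± 0.29) lost its call without OVA array 1 (adjusted p = 0.0534). The costimulator Icos (1.16 ± 0.31), Cd6 (at least 1.23-fold) and Cd8a (0.62 ± 0.17) lost theirs without 3 or more single arrays. Il7r rose by 0.55 ± 0.13 (1 of 2 probe sets at an unadjusted p under 0.05). Among cytotoxic lymphocyte genes 3 of 8 were higher and 1 lower (2 and 0 with OVA array 4), of which only Il2rb, an IL-2 receptor chain (at least 1.80-fold, adjusted p = 0.00656, no PBS array over 5), held whichever array was left out. Nkg7 (0.83 ± 0.26) and the granzyme Gzma (-0.76 ± 0.25) were called and lost the call without single arrays (adjusted p up to 0.136 and up to 0.168). Of 14 B cell genes 2 were higher (1 with OVA array 4): the antigen receptor chain Cd79a rose by 1.65 ± 0.25, and Pou2af1 (0.94 ± 0.28) lost its call without single arrays (adjusted p up to 0.102). The B cell surface marker Ms4a1 was not called at -0.34.

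The secretory machinery of plasma cells and the endoplasmic reticulum had 16 of 21 genes higher, none lower and a median of 0.73. Mzb1, a chaperone of antibody assembly in plasma cells, read 10.43, 10.63 and 10.09 after OVA and 7.67, 7.00, 8.98 and 8.54 after PBS, a rise of 2.34 ± 0.41 (adjusted p = 0.00419). Derl3, a component of protein export from the endoplasmic reticulum, had 3 of 4 PBS arrays under 5 and a difference of 2.65 ± 0.42. Fkbp11 rose by 2.24 ± 0.20, Pdia4 by 2.08 ± 0.18 and Manf by 1.01 ± 0.14. The joining chain of polymeric IgA and IgM, Jchain, rose by 0.92 ± 0.15. Sec11c, Creld2, Herpud1, Calr and Dnajb11 rose by 0.63 to 0.90, and for Sec11c 1 of 2 probe sets tested reached an unadjusted p under 0.05. The calls of Sdf2l1 (2.05 ± 0.52), Edem1, Hsp90b1 and Dnajb9 were lost without single arrays (adjusted p up to 0.0696, 0.0788, 0.076 and 0.122). Xbp1 (0.29) and Hspa5 (0.19), both central to the unfolded protein response, were not called. Many of these genes serve secretion in epithelium as well as in plasma cells. Including OVA array 4 left 4 called, all higher.

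Of 10 tested neutrophil genes 2 were higher and 1 lower, with a median of -0.14, and none was called in the limma fit with OVA array 4. Of these, 1 had no array over 5 among OVA arrays 1 to 3. Cd177, a surface glycoprotein of neutrophils, read 10.39, 10.36 and 9.67 after OVA and 6.39, 5.30, 6.73 and 7.56 after PBS, a rise of 3.64 ± 0.45 (adjusted p = 0.000997), and Ltf was the other. The neutrophil calprotectin genes S100a8 (0.04) and S100a9 (-0.44) were not called, and Elane, Mpo and Camp stayed under the filter. Stfa2l1 (at least 1.43-fold lower) lost its call without single arrays (adjusted p up to 0.132). Genes listed for eosinophils, not all of them particular to these cells, included 5 that passed the filter. Of these, 3 were higher and 1 lower (none and 1 with OVA array 4), and only Prg2 among those called encodes a granule protein. Prg2, the major basic protein of eosinophil granules, read 5.79, 5.67 and 5.93 after OVA and 5.38, 5.20, 5.12 and 5.08 after PBS, a rise of 0.60 ± 0.12 (adjusted p = 0.00593). With OVA array 4, which read 3.81, the Prg2 difference was 0.11 (adjusted p = 0.88). The eosinophil peroxidase Epx, Prg3, Ccr3 and Il5ra were at background in both groups. Adgre1 rose by 0.79 ± 0.15, Adgre4 fell by 1.47 ± 0.26, and Fcer2a (1.12 ± 0.38), the low-affinity IgE receptor, lost its call without single arrays (adjusted p up to 0.176).

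Mast cell proteases were not measurable in these lungs. Cma1 read 2.29 to 2.66 in OVA arrays 1 to 3 and 2.27 to 3.09 in the PBS arrays, Cpa3 3.05 to 3.18 and 2.51 to 3.18, Tpsb2 2.37 and 2.36 to 2.37, and Mcpt4 2.19 and 2.19 to 2.21. All these values lie at background and have no order. Of 19 listed genes with a probe set, 12 were under the filter. Among the other 7, 2 were higher and 1 lower, and the limma fit with OVA array 4 called none. Kit was 1 of the 2, and since it chose the array left out, its part in both counts is no support. Fcer1g, the signalling chain that the high-affinity IgE receptor shares with other Fc receptors on many myeloid cells, rose by 1.21 ± 0.22, and Rab27b (-0.47 ± 0.13) lost its call without single arrays (adjusted p up to 0.0839). Kit chose the array that was left out, so its higher mean after OVA, 10.74 ± 0.20 (SD, n = 3) against 10.06 ± 0.18 (SD, n = 4), is given without a test.

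Interferon-induced genes were higher in 8 of 23 and lower in none, with a median of 0.48, against 2 higher with OVA array 4 in the fit. The chemokine Cxcl9, which interferon-γ induces and which attracts T cells, read 10.48, 9.73 and 8.71 after OVA and 5.57, 2.96, 6.40 and 5.58 after PBS, a rise of 4.51 ± 0.74 (adjusted p = 0.00311). Cxcl10 rose by 2.69 ± 0.47 and Ifngr2, a chain of the interferon-γ receptor, by 1.69 ± 0.15. OVA array 1 was the highest for both chemokines. The peptide transporter Tap1 (1.07 ± 0.23) and the immunoproteasome subunits Psmb8 (0.80 ± 0.17) and Psmb9 (0.72 ± 0.13) were higher, whereas Ifit1 (0.04), Ifit3 (0.07) and Rsad2 (-1.10) were not called. Iigp1 and Irf8 lost their calls without single arrays (adjusted p up to 0.0582 and up to 0.147). Of 16 dendritic cell and MHC class II genes 4 were higher and 1 lower (none and 1 with OVA array 4). The class II transactivator Ciita (1.21 ± 0.21), the transcription factor Batf3 (1.19 ± 0.19) and H2-Ab1 (0.60 ± 0.12) rose, and H2-DMa lost its call without single arrays (adjusted p up to 0.151).

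Complement genes were higher in 7 of 15 and lower in 2, with a median of 0.38, against 4 and none with OVA array 4 in the fit. Cfi and C5ar1, 2 of the 7, had no PBS array over 5. Cfi, the protease that degrades C3b, read 5.39, 5.78 and 5.32 after OVA and 2.76, 2.77, 2.67 and 2.78 after PBS, a rise of at least 1.41-fold (adjusted p = 1.01e-05). OVA array 4, at 2.76, was at the PBS level for Cfi. The anaphylatoxin receptors C3ar1 and C5ar1 rose by 1.97 ± 0.22 and at least 1.79-fold, and factor B, Cfb, by 1.38 ± 0.18. C2 (-0.70 ± 0.16) and Serping1 (-0.54 ± 0.13) lost their calls without single arrays (adjusted p up to 0.0531 and up to 0.056). Eicosanoid genes were split, with 4 of 13 higher and 5 lower (none and 1 with OVA array 4), and 1 had no array over 5 among OVA arrays 1 to 3. The thromboxane synthase Tbxas1 rose by 1.53 ± 0.18 and the prostaglandin E synthase Ptges by 1.18 ± 0.16. Ptgs2, the inducible cyclooxygenase upstream of both, read 7.46, 6.89 and 7.49 after OVA and 9.27, 8.93, 8.83 and 8.39 after PBS, a fall of 1.58 ± 0.22 (log2 difference -1.58, adjusted p = 0.00168). Ltc4s (0.95 ± 0.29), which makes the cysteinyl leukotriene LTC4, Ptges2, Hpgd, Lta4h, Alox12 and Cysltr1 all lost their calls without single arrays (adjusted p up to 0.109, 0.143, 0.0635, 0.0793, 0.0617 and 0.155).

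Matrix proteases and their inhibitors were higher in 7 of 14 and lower in 2, with a median of 0.66, against 1 higher and 1 lower with OVA array 4 in the fit. Timp1, the inducible inhibitor of metalloproteases, read 11.29, 9.84 and 9.18 after OVA and 6.44, 6.20, 6.30 and 5.55 after PBS, a rise of 3.98 ± 0.44 (adjusted p = 0.000638). OVA array 4, at 7.15, was above the PBS arrays and under the other OVA arrays. Mmp19 rose by 1.81 ± 0.27, the myeloid protease Adam8 by 1.57 ± 0.23, the membrane protease Mmp14 by 1.11 ± 0.17 and the urokinase receptor Plaur by 0.96 ± 0.18. Timp4, Mmp3 and Adamts1 lost their calls without single arrays (adjusted p up to 0.0801, 0.0988 and 0.145). Matricellular and elastic fibre genes were higher in 5 of 19 and lower in 5, with a median of 0.12 (2 and 3 called with OVA array 4). Of the 19, 1 had no PBS array over 5 and 2 had no array over 5 among OVA arrays 1 to 3. Tenascin C, Tnc, an adhesion-modulating protein of remodelling tissue, rose by 1.96 ± 0.39, and the proteoglycan Vcan at least 2.40-fold. Thbs1 (1.24 ± 0.36) and Ccn2 (0.52 ± 0.16) were called higher and lost the call without single arrays (adjusted p up to 0.106 and up to 0.129). Falls were seen in Spon2, a secreted pattern-recognition protein, which read 4.25, 3.48 and 4.17 after OVA and 7.42, 6.88, 6.80 and 6.55 after PBS (at least 3.77-fold lower, adjusted p = 0.000211). OVA array 4, at 4.13, stood with the other OVA arrays for Spon2. The small proteoglycans Lum and Dcn, which bind collagen fibrils, fell by 2.10 ± 0.38 and 1.40 ± 0.19, and Fbln2 fell at least 2.28-fold. Postn, a widely used marker of IL-13 action in airway epithelium, was called lower (-0.40 ± 0.12), which was lost without single arrays (adjusted p up to 0.117).

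Of 17 collagen chain and crosslinking genes, 4 were higher and 2 lower, with a median of 0.11 (1 and 1 called with OVA array 4). Only Col1a1, a chain of type I collagen, kept its call whichever array was left out: it read 10.14, 10.37 and 9.72 after OVA and 8.72, 7.99, 8.69 and 8.63 after PBS, a rise of 1.57 ± 0.21 (adjusted p = 0.00155). The partner chain Col1a2 was called at 0.41 ± 0.13, Lox at 0.46 ± 0.15, Col18a1 at 0.40 ± 0.12, Col4a3 at -0.89 ± 0.23 and Col14a1 at -0.46 ± 0.14 (adjusted p up to 0.125, 0.143, 0.125, 0.0541 and 0.101 without 1 array). In smooth muscle, 2 of 10 genes were higher (1 with OVA array 4), Actg2 (1.22 ± 0.20) and Des (1.01 ± 0.22), and Acta2 (0.32), the usual marker of smooth muscle, was not called.

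Heart muscle markers, which mouse lung samples can carry from the walls of pulmonary veins, differed widely between the PBS arrays. Their summed log2 value over the 17 tested genes ran from 129.87 to 134.80 in OVA arrays 1 to 3 and from 111.57 to 146.58 in the PBS arrays. Myh6, the atrial and mouse ventricular myosin chain, read 7.86 in PBS array 2 and 10.53 to 11.16 in the other PBS arrays. Ankrd1, an inducible muscle protein, was called higher (1.13 ± 0.24), and Csrp3 was called lower (-1.54 ± 0.52) with overlapping groups and lost the call without single arrays (adjusted p up to 0.143). These were the only calls in the list, and 1 gene was called with OVA array 4, higher.

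Adipocyte and fat oxidation genes held the 4 largest falls. Carbonic anhydrase 3, Car3, abundant in fat and muscle, read 7.02, 6.71 and 6.28 after OVA and 10.85, 9.54, 10.89 and 10.94 after PBS, a fall of 3.89 ± 0.34 (adjusted p = 0.000275). Adipoq, the adipocyte hormone adiponectin, read 2.46, 2.84 and 2.46 against 6.98, 5.21, 6.51 and 6.40, a fall of at least 2.42-fold (adjusted p = 0.000325). For both genes PBS array 2 was the lowest PBS array, and OVA array 4 (10.07 and 5.92) read like the PBS arrays. Thrsp, a regulator of lipid synthesis, fell at least 2.20-fold and was also lowest in PBS array 2 (4.73 against 6.38 to 6.86). In the list of 11 tested fat storage genes 3 were lower and 4 higher, with a median of 0.25 (3 lower and 2 higher with OVA array 4). Adipoq and Thrsp, both among the lower, had no array over 5 among OVA arrays 1 to 3. The higher ones were Fabp4 (1.12 ± 0.33), which macrophages also express, the lipases Pnpla2 (0.66 ± 0.14) and Lipe (0.68 ± 0.14), and the desaturase Scd1 (0.51 ± 0.16), of which Fabp4 and Scd1 lost their calls without single arrays (adjusted p up to 0.0669 and up to 0.137). Lep, Ucp1, Plin4 and Cidec, further adipocyte markers, were under the filter. The summed log2 value of the 11 genes ran from 83.18 to 84.50 in OVA arrays 1 to 3 and from 86.08 to 92.89 in the PBS arrays, and the part of fat cell content in these falls was not tested.

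In peroxisomal and mitochondrial fat oxidation, 10 of 19 genes were lower and none higher, with a median of -0.45. Fabp1, a fatty acid carrier and target of the nuclear receptor PPARα, read 5.89, 4.43 and 6.64 after OVA and 9.58, 9.08, 9.29 and 8.12 after PBS, a fall of 3.36 ± 0.50 (adjusted p = 0.00222). Acaa1b, a peroxisomal thiolase, read 4.17, 3.57 and 4.96 against 7.82, 7.99, 7.24 and 7.18, a fall of at least 5.89-fold (adjusted p = 0.000341). Every PBS array of both genes lay above every array of OVA 1 to 3. Its close copy Acaa1a fell by 1.04 ± 0.24, and the thioesterase Acot1 by 1.44 ± 0.27. Ppara itself, the gene of PPARα, fell by 1.25 ± 0.23, the coactivator Ppargc1a by 1.30 ± 0.29 (1 of 3 probe sets at an unadjusted p under 0.05) and Cyp4b1 by 0.61 ± 0.13. Acot2, Acaa2 and Pdk4 lost their calls without single arrays (adjusted p up to 0.108, 0.094 and 0.128). Cpt1a (-0.05), the entry step of mitochondrial oxidation, and Hadha (0.39) were not called. With OVA array 4 in the fit 7 were lower and none higher. Acaa1b had no array over 5 among OVA arrays 1 to 3.

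Among the other large falls, Itgb6, the β subunit of the epithelial integrin αvβ6 that activates TGF-β, read 6.94, 7.05 and 7.07 after OVA and 10.18, 9.90, 9.63 and 8.63 after PBS, a fall of 2.56 ± 0.31 (adjusted p = 0.000955). Here OVA array 4, at 6.70, was with the other OVA arrays. The detoxifying esterase Pon1 fell by 2.54 ± 0.24 and the ethanol-metabolising Cyp2e1 by 2.48 ± 0.23, and in Cyp2e1 OVA array 4 (7.94) read like the PBS arrays (7.53 to 7.96). The phosphatase Inpp4b fell at least 1.18-fold and Chic1 at least 5.46-fold, with PBS array 4 the lowest PBS array in both. Dnajb14 and Bex2 fell by 2.45 ± 0.24 and 2.44 ± 0.30, and for Dnajb14 1 of 2 probe sets tested reached an unadjusted p under 0.05. Samd5 read 5.46 in each of OVA arrays 1 to 3 and 8.00, 8.17, 7.32 and 8.23 in the PBS arrays (difference -2.47), and since its OVA values were identical they give no spread of their own. Mical2 fell by 2.40 ± 0.48, but of its 2 probe sets tested 1 changed in each direction at an unadjusted p under 0.05.

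**Figure D3:**
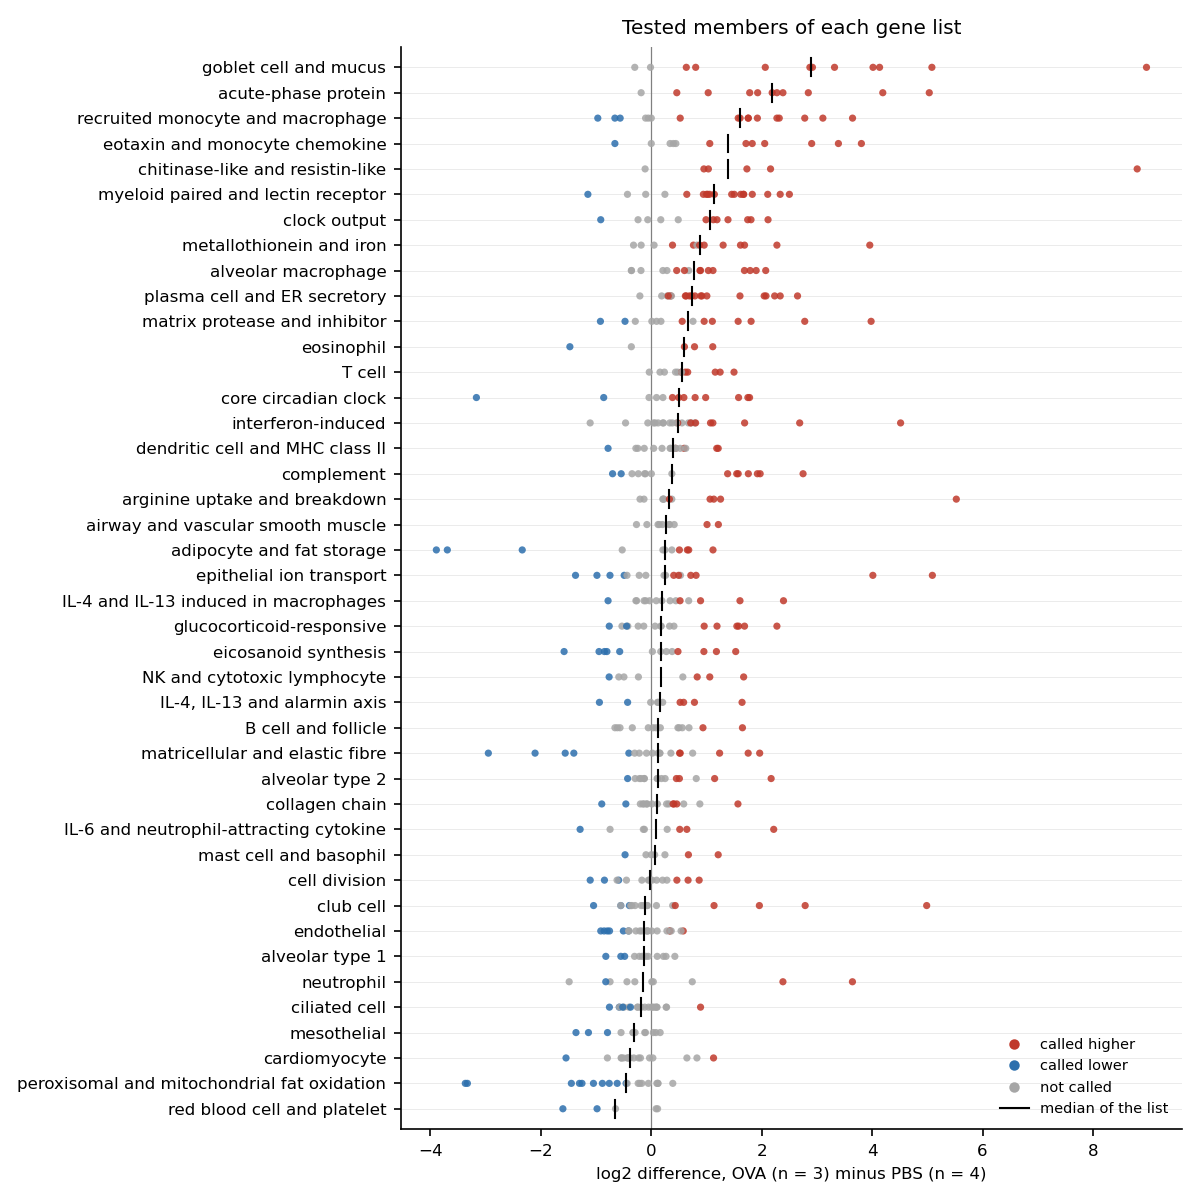
Log2 difference (OVA arrays 1 to 3 minus PBS arrays) of each tested member of the gene lists, with 1 point per gene, red where called higher, blue where called lower and grey where not called, and a black bar at the median of the list. Goblet cell genes have the highest median, 2.90, and of the lists with over 10 tested members fat oxidation has the lowest, -0.45, beside a median of -0.03 over all tested genes.

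The circadian clock genes changed in both directions. In the clock, the proteins of Arntl (BMAL1), Clock and Npas2 bind E-boxes and switch on the Per, Cry and Nr1d genes and the output genes Dbp, Tef and Ciart, whose proteins close the loop. The proteins of Nr1d1 and Nr1d2 repress Arntl, and the levels of all these transcripts depend on the hour of the day. Arntl read 4.09, 4.50 and 4.22 after OVA and 7.85, 7.35, 7.43 and 7.08 after PBS, a fall of at least 5.39-fold (adjusted p = 4.15e-05). Clock fell by 0.86 ± 0.10 (adjusted p = 0.000829). Npas2, with 2.46, 2.73 and 2.73 against 5.71, 5.18, 4.88 and 4.42, stayed under the filter and was not tested. So all 3 activating partners were lower in every one of OVA arrays 1 to 3 than in every PBS array.

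Their targets stood on the other side. Per2 read 8.40, 8.46 and 8.49 after OVA and 6.41, 6.60, 7.08 and 6.58 after PBS, a rise of 1.78 ± 0.16 (adjusted p = 0.000275). Dbp read 11.42, 11.46 and 11.57 against 8.66, 9.79, 9.63 and 9.38, a rise of 2.12 ± 0.24 (adjusted p = 0.000712). Ciart, a repressor of the clock, read 7.30, 7.46 and 7.48 against 5.37, 5.46, 5.56 and 6.04, a rise of 1.81 ± 0.16 (adjusted p = 0.000275). OVA arrays 1 to 3 lay within 0.2 log2 units of each other in all of these. Nr1d1 rose by 1.75 ± 0.24, Bhlhe40 by 1.75 ± 0.19, Per1 by 1.58 ± 0.17, Tef by 1.39 ± 0.16, Per3 by 0.99 ± 0.21, Nr1d2 by 0.80 ± 0.14 and Cry2 by 0.59 ± 0.12. The clock-driven genes Usp2 and Wee1 rose by 1.13 ± 0.15 and 0.99 ± 0.12, and Lonrf3 fell by 0.91 ± 0.21. Cry1 (0.21), Rora (-0.04) and Hlf (0.49) were not called. Csnk1e (0.50 ± 0.13) and Csnk1d (0.39 ± 0.11), the kinases that mark PER for breakdown, lost their calls without single arrays (adjusted p up to 0.0773 and up to 0.0989), and 1 of 5 Csnk1d probe sets went the other way. In counts, 8 of 13 core genes were higher and 2 lower (median 0.50), and 7 of 12 output genes were higher and 1 lower (median 1.06). Including OVA array 4 left 3 core genes higher and 2 lower, and 6 output genes higher and none lower. Arntl, among the lower core genes, had no array over 5 among OVA arrays 1 to 3.

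**Figure D4:**
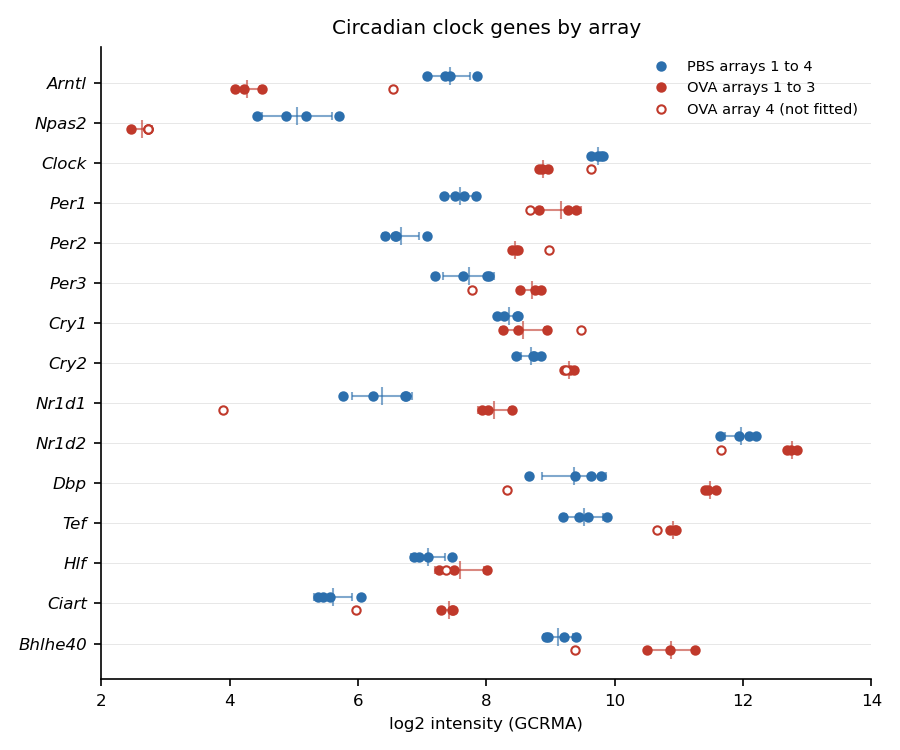
Log2 intensity (horizontal axis) of 15 circadian clock genes, with 1 point per array and a bar for the mean ± SD of the 4 PBS arrays (blue) and of OVA arrays 1 to 3 (filled red). Arntl, Npas2 and Clock are lower in every one of OVA arrays 1 to 3 than in every PBS array, and Per2, Nr1d1, Dbp and Ciart are higher, while OVA array 4 (open red) reads 3.89 for Nr1d1 and 8.33 for Dbp, under every PBS array.

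OVA array 4 had a different clock pattern from the other OVA arrays. It read 3.89 for Nr1d1 and 8.33 for Dbp, under the lowest PBS arrays (5.77 and 8.66), 8.97 for Per2, above every other array, and 6.55 for Arntl, between the groups. With it in the fit, Nr1d1 (0.69, adjusted p = 0.61) and Dbp (1.33, adjusted p = 0.19) were no longer called, while Per2 (1.91, adjusted p = 0.0034), Per1 (1.46, adjusted p = 0.0058), Tef (1.33, adjusted p = 0.0051) and Arntl (-2.59, adjusted p = 0.016) were. The labels give no hour of tissue collection, and its part in these values was not tested.

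Promoter sequences of 3 clock genes show the elements by which the loop is textbook-known to work, as RefSeq gives them on GRCm38.p6 and written 5′ to 3′ with the motif in capitals. Ciart (chr3:95882179-95882478, minus strand) is shown for its E-boxes, CACGTG, which BMAL1 with CLOCK binds. It holds 3, with their first bases 116, 58 and 44 bases before the start:
Ciart: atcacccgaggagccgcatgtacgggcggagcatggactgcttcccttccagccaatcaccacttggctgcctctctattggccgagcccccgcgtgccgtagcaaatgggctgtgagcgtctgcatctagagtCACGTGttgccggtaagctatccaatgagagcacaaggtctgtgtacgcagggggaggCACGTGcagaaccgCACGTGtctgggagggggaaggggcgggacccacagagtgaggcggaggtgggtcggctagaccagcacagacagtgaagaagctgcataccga
Per3 (chr4:151044616-151044915, minus strand) is shown for its D-boxes, the site of the proteins of Dbp and Tef, searched as TTATGTAA, TTACATAA and TTACGTAA on both strands. It holds 2, at 205 and 158 bases before the start:
Per3: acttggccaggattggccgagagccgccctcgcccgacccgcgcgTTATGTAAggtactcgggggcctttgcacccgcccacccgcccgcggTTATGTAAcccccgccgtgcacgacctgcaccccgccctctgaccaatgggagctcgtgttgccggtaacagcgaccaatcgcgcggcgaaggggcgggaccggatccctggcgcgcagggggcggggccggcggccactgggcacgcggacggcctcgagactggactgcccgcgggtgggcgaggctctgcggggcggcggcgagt
Arntl (chr7:113207261-113207560, plus strand) is shown for the site of the Nr1d1 and Ror proteins, searched on both strands as TAGGTCA, whose 1 match begins 30 bases after the start:
Arntl: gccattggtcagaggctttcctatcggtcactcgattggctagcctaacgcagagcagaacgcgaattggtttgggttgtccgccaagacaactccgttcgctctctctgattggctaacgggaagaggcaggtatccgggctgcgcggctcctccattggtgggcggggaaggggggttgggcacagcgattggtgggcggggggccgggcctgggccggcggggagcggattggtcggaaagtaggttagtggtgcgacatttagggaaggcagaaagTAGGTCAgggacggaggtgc
Of the 18 clock and output genes called, 14 matched a promoter in RefSeq by symbol, with 24 promoters. CACGTG stood in 5 of these 24 (20.8%), in Ciart, Tef, Per1 and Lonrf3, against 7.15% of all 32851 promoters. A D-box stood in 1 of the 24 (1.06% of all promoters), and TAGGTCA in 1 (2.61%). The sets share genes with several promoters, and the motifs do not overlap each other in these windows.

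Glucocorticoid-responsive genes are also set by the hour through the adrenal rhythm. Of 17 tested, 6 were higher and 2 lower, with a median of 0.18. Fkbp5, a cochaperone that the glucocorticoid receptor induces, read 8.71, 8.04 and 8.55 after OVA and 6.57, 7.13, 6.92 and 6.91 after PBS, a rise of 1.55 ± 0.19 (adjusted p = 0.000902). Tsc22d3, the glucocorticoid-induced leucine zipper, rose by 1.19 ± 0.17. Per1 and Lcn2, which also belong to other lists, and the metallothioneins Mt2 (1.69 ± 0.31) and Mt1 (0.96 ± 0.15), which bind zinc and copper, were the other 4. OVA array 4 stood with the OVA arrays for Tsc22d3, at 11.60, and with it 5 of the list were called higher and none lower. Nr3c1, the glucocorticoid receptor gene (-0.44 ± 0.12), and Pdk4 lost their calls without single arrays (adjusted p up to 0.0827 and up to 0.128). Sgk1 (0.41) and Zbtb16 (0.18), further classical targets, were not called.

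Metal and iron genes were higher in 9 of 13 and lower in none, with a median of 0.88, against 5 higher with OVA array 4 in the fit. Hmox1, the haem oxygenase that frees iron from haem, read 6.88, 6.46 and 5.73 after OVA and 2.19, 2.48, 2.46 and 2.48 after PBS, a rise of at least 2.57-fold (adjusted p = 4.87e-05). All PBS arrays and OVA array 4 (2.48) were at background, so Hmox1 passed the filter through the OVA arrays alone. The phagosomal metal transporter Slc11a1 rose by 1.62 ± 0.28, the transferrin receptor Tfrc by 1.30 ± 0.18 and the iron transporter Slc11a2 by 0.77 ± 0.14. Steap4 and the ferritin chain Fth1 lost their calls without single arrays (adjusted p up to 0.0512 and up to 0.0602). Hepcidin, Hamp (0.83), and ferroportin, Slc40a1 (-0.32), were not called.

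Calls among genes of alveolar and airway epithelium went in both directions, as they did over all tested genes (16.8% higher and 16.3% lower). The shares higher and lower were 26.7% and 6.7% for alveolar type 2 genes and 0.0% and 25.0% for type 1. For club cell genes they were 27.8% and 16.7%. Alveolar type 2 genes were higher in 4 of 15 and lower in 1, with a median of 0.12 (1 and 1 called with OVA array 4). Nkx2-1, 1 of the 4, had no PBS array over 5. The transcription factor Etv5 rose by 1.15 ± 0.17, and Nkx2-1, the lung lineage factor, at least 1.27-fold from PBS values of 2.31 to 4.43 to OVA values of 5.08 to 5.86, while Sftpc (-0.21) was not called. Napsa, Scd1 and Abca3 lost their calls without single arrays (adjusted p up to 0.127, 0.137 and 0.102). Of 12 alveolar type 1 genes none was higher and 3 were lower (1 lower with OVA array 4), Akap5 (-0.82 ± 0.17), Cav1 (-0.55 ± 0.12) and Emp2 (-0.48 ± 0.13), the last lost without single arrays (adjusted p up to 0.0864). Club cell genes were higher in 5 of 18 and lower in 3, and none was called in the limma fit with OVA array 4. Reg3g, one of the largest rises, was among the 5. The antimicrobial secretory protein Bpifb1 read 12.70, 12.69 and 13.07 after OVA and 9.99, 8.62, 10.62 and 10.90 after PBS, a rise of 2.79 ± 0.47 (adjusted p = 0.00335). The secretoglobin Scgb3a1 rose by 1.14 ± 0.24, whereas the detoxifying enzymes Fmo1 and Cyp2f2 fell by 1.04 ± 0.15 and 0.55 ± 0.12. Bpifa1 (1.96 ± 0.66), Lypd2 (0.44 ± 0.11) and Scgb3a2 (-0.39 ± 0.10) lost their calls without single arrays (adjusted p up to 0.13, 0.0533 and 0.0727).

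Ciliated cell genes had 1 of 21 higher and 4 lower, with a median of -0.18 (none and 1 with OVA array 4). Foxj1, the transcription factor that drives cilia formation, rose by 0.89 ± 0.16, and the axoneme gene Spag6l fell by 0.75 ± 0.15. Dnah11, Rsph4a and Tuba1a lost their calls without single arrays (adjusted p up to 0.0581, 0.16 and 0.117). Endothelial genes were higher in 2 of 22 and lower in 6 (1 and 2 with OVA array 4). Ednrb, the endothelin B receptor, fell by 0.91 ± 0.18, the apelin receptor Aplnr by 0.85 ± 0.14, the angiopoietin receptor Tek by 0.79 ± 0.13 and Bmx by 0.75 ± 0.15, and the junction cadherin Cdh5 rose by 0.58 ± 0.14. Kdr, Cldn5 and Tie1 lost their calls without single arrays (adjusted p up to 0.133, 0.0794 and 0.125). Mesothelial genes had none of 12 higher and 3 lower (1 lower with OVA array 4), of which Muc16 (-1.36 ± 0.25) and Upk1b (-1.13 ± 0.23) held whichever array was left out, and Gpm6a did not (adjusted p up to 0.0724).

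Cell division genes were balanced, with 3 of 16 higher, 3 lower and a median of -0.02 (none and 2 with OVA array 4). The replication helicase subunit Mcm5 rose by 0.87 ± 0.19, and the mitotic regulators Bub1 and Cdc20 fell by 1.10 ± 0.22 and 0.59 ± 0.09. Mcm2, Mcm6 and Ccnb2 lost their calls without single arrays (adjusted p up to 0.0572, 0.124 and 0.149), and Mki67 (-0.02), the usual proliferation marker, was not called. In red cell and platelet genes, 5 passed the filter and 2 were lower, neither of them with OVA array 4: Alas2, the haem synthesis enzyme of erythroid cells, fell by 1.60 ± 0.34, and the platelet protein Ppbp (-0.98 ± 0.28) lost its call without single arrays (adjusted p up to 0.0958).

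OVA array 4 stood nearer to the PBS arrays than the other OVA arrays did. Among the 1850 genes called higher without it, it was above the PBS mean in 1153 (62.3%) and above every PBS array in 723 (39.1%). Among the 1798 called lower, it was under the PBS mean in 1387 (77.1%) and under every PBS array in 1057 (58.8%). On a scale from the PBS mean (0%) to the mean of the other OVA arrays (100%), its median position was 13.6% for the genes called higher and 43.0% for those called lower. The genes and the 100% mark were set by the other OVA arrays. A left-out array can therefore fall short of 100% by that choice alone, and how far was not tested. These shares and positions are descriptions. Over all genes, which the fit did not choose, Pearson's r with the PBS arrays was 0.99 to 0.994 for OVA array 4. It was 0.982 to 0.991 for the other OVA arrays. Of the 15 largest rises, 12 were called with OVA array 4 in the fit, and of the 15 largest falls, 14. Its Kit value, the Y-linked transcripts and its clock genes set it apart from the other OVA arrays as well, and their part in its position was not tested.

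**Figure D5:**
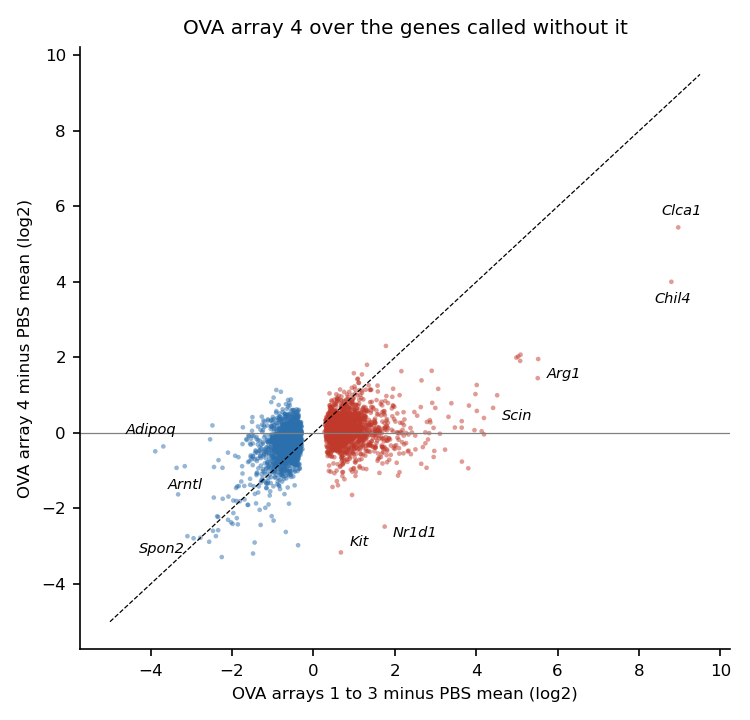
Each point is 1 of the 3648 genes called without OVA array 4, with its log2 difference between OVA arrays 1 to 3 and the PBS mean on the horizontal axis and that between OVA array 4 and the PBS mean on the vertical axis, red where called higher and blue where called lower. On the dashed line both differences would be equal. Clca1, Chil4 and Arg1 lie above 0 and under that line. Nr1d1 lies far under 0, as does Kit, which chose the array that was left out.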

How the data were processed

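RNA from whole lung was measured on Affymetrix mouse arrays, 36 in the series. The authors deposited log2 intensity values from GCRMA, as the submitters' processing notes name it, without a version. This method subtracts background modelled from probe sequence, equalises the arrays by quantiles and combines the probes of a set, so dim transcripts pile up near a floor and have no order there. The number of arrays limits the precision.

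Of 45101 probe sets, 64 controls were left out. The platform annotation gave 1 symbol for 34958, several for 932 and none for 9211. Each gene was represented by its brightest probe set on average across the 8 wild-type arrays, giving 18193 genes, of which 11027 that exceeded log2 5 on 3 or more of these arrays were tested. Limma 3.58.1 in R 4.3.3 (lmFit and eBayes, 5 residual degrees of freedom, two-sided) compared 3 OVA with 4 PBS arrays, with Benjamini-Hochberg adjustment over all tested genes and a call at adjusted p under 0.05. The procedure was tested on simulated data. Where no array of the lower group exceeded 5, the fold is given as at least the higher mean against 5. Probe sets that did not reach an unadjusted p under 0.05 are given for some named genes, not for all that had them.

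Named genes are the 15 largest called rises and falls, passing over immunoglobulin and T cell receptor segments, predicted and clone-named genes, together with every called member of a described list, Kit and 4 mast cell proteases. Further list members are named with their values as not called. The 43 gene lists and the comparison were chosen with earlier results of these data known, and each list is described by counts without a test. The alternatives were OVA array 4 included, each fitted array left out, a fit of all 10 groups, other filters, quantile normalisation, centring, averaged probe sets and another eBayes setting.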

Additional observations from a re-analysis of the deposited data

Results flagged for a closer look

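Over the 284 named genes, 568 groups of 4 arrays were examined for a single array far from the rest by Dixon's test at the 95% level, which sets its gap to the nearest array against the group's range. Chance marks about 1 group in 20 where values did not choose the genes. Here 60 were found, but these genes were called in a fit without OVA array 4, which favours close OVA arrays 1 to 3, so that rate does not apply and the counts are descriptions. OVA array 4, which was not fitted, was the one apart in 32 of these, PBS array 4 in 14, other OVA arrays in 3 and other PBS arrays in 11. All values are log2 intensities, and those under 5 lie near background and have no order. Hmox1, Itln1, Fer1l6 and Il1rn in the PBS arrays and Spon2 in the OVA arrays therefore stand apart only among such values.

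Among goblet cell and epithelial genes, OVA array 4 read Fer1l6 3.93 (the others 7.77 to 8.21), Agr2 5.21 (the others 8.16 to 8.59), Reg3g 8.69 (the others 11.55 to 11.85), Scin 3.24 (the others 6.63 to 7.24), Gp2 5.29 (the others 8.92 to 9.35) and Muc5ac 3.34 (the others 7.21 to 7.84). In the same class it read Muc5b 8.44 (the others 10.96 to 11.12), Tff2 6.88 (the others 9.73 to 9.80), Galnt12 6.39 (the others 7.25 to 7.29), Itln1 3.20 (the others 5.21 to 5.50), Pigr 9.26 (the others 11.23 to 11.54), Bpifb1 10.32 (the others 12.69 to 13.07) and Lypd2 9.05 (the others 9.73 to 9.74). All 13 were low there. Clock and steroid receptor transcripts read Arntl 6.55 (the others 4.08 to 4.50), Per2 8.97 (the others 8.40 to 8.49), Nr1d1 3.89 (the others 7.92 to 8.40), Nr1d2 11.66 (the others 12.69 to 12.84), Dbp 8.33 (the others 11.41 to 11.57), Ciart 5.97 (the others 7.30 to 7.48) and Nr3c1 11.24 (the others 10.40 to 10.51). Fat and metabolism genes read Adipoq 5.92 (the others 2.46 to 2.84), Thrsp 5.42 (the others 3.74 to 3.93), Pon1 10.50 (the others 7.93 to 8.26) and Samd5 5.34 (the others 5.46), where Adipoq, Thrsp and Pon1 were high and Samd5 low. Immune genes read C1qc 7.52 (the others 9.15 to 9.48), Sec11c 10.66 (the others 12.02 to 12.29), Prg2 3.81 (the others 5.67 to 5.93), Clec4a3 7.86 (the others 8.94 to 9.01), Ifngr2 6.94 (the others 7.96 to 8.17) and Cfi 2.76 (the others 5.32 to 5.78), all low. The label genes read Kit 6.90 (the others 10.61 to 10.97) and Xist 10.00 (the others 12.56 to 12.64). Kit chose the array that was left out, so its place among these groups was fixed in advance. The Y-linked transcripts, outside the tested genes, read 9.07 for Eif2s3y, 7.08 for Kdm5d and 5.70 for Uty in that array, where the PBS arrays read 2.19 to 2.35, 2.19 and 2.19.

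PBS array 4, which had the largest 3′ minus 5′ differences of control transcripts, was high for Fer1l6 3.27 (the others 2.20 to 2.24), Itln1 3.69 (the others 3.20), Creb3l1 6.73 (the others 6.27 to 6.32) and Cdc20 8.42 (the others 8.35 to 8.36). It was low for Chic1 5.84 (the others 7.88 to 8.05), Thbs1 7.24 (the others 8.53 to 8.68), Fbln2 5.21 (the others 6.45 to 6.62), Ppargc1a 5.72 (the others 6.80 to 7.02) and Ms4a7 6.26 (the others 6.53 to 6.59). It was also low for Cd68 7.63 (the others 8.65 to 8.75), Sdf2l1 3.67 (the others 5.75 to 6.05), Cd300a 4.49 (the others 5.23 to 5.33), Cysltr1 4.01 (the others 5.17 to 5.39) and Cdh5 10.29 (the others 10.50 to 10.54). PBS array 2 stood apart in Car3 9.54 (the others 10.85 to 10.94), Chil3 13.35 (the others 13.13 to 13.17), Il1rn 4.04 (the others 3.43 to 3.52), Ccl5 8.20 (the others 8.96 to 9.07) and Col1a1 7.99 (the others 8.63 to 8.72). PBS array 3 did so in Srm 7.66 (the others 7.40 to 7.43) and Cx3cr1 7.43 (the others 7.83 to 7.90), and PBS array 1 in Adamts1 9.35 (the others 9.82 to 9.86), Psmb9 9.51 (the others 9.20 to 9.23), Ptges 5.90 (the others 5.67 to 5.71) and Hmox1 2.19 (the others 2.46 to 2.48). Of the fitted OVA arrays, array 2 stood apart in Spon2 3.48 (the others 4.12 to 4.25) and Cd209a 5.44 (the others 5.53 to 5.55), and array 3 in Csf1r 10.69 (the others 11.00 to 11.06).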

How the results depend on the processing

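The 3648 calls (1850 higher, 1798 lower) depended on which arrays were fitted. With OVA array 4 in the fit, limma called 1354 genes (578 higher, 776 lower). A fit of all 10 groups of the series, also without OVA array 4, called 554 (316 and 238). That fit called 2022 (1041 and 981) once a KitWsh PBS array of low correlation (MCigeR engraftment, replicate 2) was left out as well. Leaving out each fitted array in turn gave 2163 (without OVA array 2) to 4521 (without PBS array 4) calls, 1217 to 2294 higher and 946 to 2227 lower. Without a filter on low values 1318 genes were called higher and 1154 lower. Other filters, quantile normalisation, centring, averaged probe sets and another eBayes setting gave 3083 to 3837 calls. The share of calls that were higher was 50.7%, and 42.7% with OVA array 4. Counts of list members called, over 86 lists and directions, moved by over 1.5 times in 51 with OVA array 4, 34 without a filter, 22 with a higher filter and 4 each with quantile normalisation and centring. Of the 284 named genes called, 198 kept the call whichever array was left out and 52 under every alternative that fitted them. Of the 30 largest changes, 29 and 23 did. Genes absent from an alternative count as kept there. The higher filter fitted 223 of the 284, the filter on the mean 266 and averaged probe sets 255. The only reversed direction among the named genes was that of Kit with OVA array 4 in the fit, at -0.285, a value that follows from the choice of arrays by Kit and has no test. No paired analysis was possible because the titles number the OVA arrays and the PBS arrays differently, so the groups share no replicate number.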

Other observations

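Immunoglobulin genes were passed over by the rule for named genes, because V segment probe sets read the few antibody clones of a sample and close copies of each other, and the genes given here were chosen after their values were seen. Igha, the constant region of IgA, the antibody of mucosal surfaces, read 14.57, 14.95 and 14.40 in OVA arrays 1 to 3 and 13.18, 13.50, 13.18 and 13.61 in the PBS arrays. The groups did not overlap, and Igha rose by 1.27 ± 0.17 (limma adjusted p = 0.00133), and by 1.10 with OVA array 4 in the fit (adjusted p = 0.0161). Ighg3, the constant region of IgG3, read 11.60, 11.95 and 10.81 against 6.94, 8.75, 9.98 and 8.87, a rise of 2.82 ± 0.61 (adjusted p = 0.00914). With OVA array 4, at 8.46, the Ighg3 difference was 2.07 (adjusted p = 0.111). Ighm, the constant region of IgM, read 13.91, 14.27 and 14.02 against 13.88, 13.09, 14.27 and 14.37, and the groups overlapped (difference 0.16, adjusted p = 0.678).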
